A study of Homo sapiens with 2 samples.

Results

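The circRNAs described here came from 7 host genes of N-glycan processing and protein folding in the endoplasmic reticulum (ER), MAN1A2, FUT8, UGGT1, UGGT2, CANX, PDIA4 and DNAJC3. They were all circRNAs whose host field, split at commas, named exactly one of these genes, which gave 10 of the 1485 circRNAs in the table. RNA came from SW620, an established human colorectal cancer cell line. One library was of cells given the herb pair Hedyotis diffusa and Sculellaria barbata (HD-SB, spelled as in the labels) at 1 mg/mL and collected after 24 h, and the other was labelled Control, with no vehicle named. Linear RNA had been digested with RNase R. The values of the listed circRNAs were taken as counts of reads across a back-splice, the junction that closes a circle. The deposited values corresponded to 11570 reads on 1475 circRNAs in HD-SB and, in the control, to 91 reads on 32 circRNAs. A circRNA was listed in a library from 2 reads upward. Each group is a single library, so there is no replicate error and no p-value, and what follows compares the libraries rather than the treatments.

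CircRNAs form when a splice donor is joined to an acceptor upstream of it, so that 1 or more exons of a gene become a closed ring. A circRNA is therefore a readout of back-splicing of its host and does not give the level of the host mRNA or protein. In the ER, a newly made glycoprotein carries a glucose-capped N-glycan, and removal and re-addition of glucose send it in and out of the lectin chaperone cycle until it is folded. Mannosidases then trim the glycan, and enzymes of the Golgi extend and fucosylate it.

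The cell type on the labels was compared with marker genes among the hosts. Of 12 intestinal epithelial marker genes, 3 (EPCAM, EPHB2 and VIL1) were hosts, with 54 HD-SB reads on 5 circRNAs. These had no listed control read, and 97.8% of all circRNAs were listed in HD-SB only. Of 8 fibroblast and smooth muscle, 7 leukocyte and 5 endothelial markers, none was a host in either library. These short lists show back-splicing and not marker expression, so the cell type rests on the labels.

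The structure of the circles was read from their length. None of the 10 positions lay inside its host gene in the GRCh38 annotation, against 19.4% of the 1313 circRNAs whose host is annotated on the same chromosome, although GRCh38 is the build named in the submitters' processing notes, so positions are printed below as deposited, with no build. The span of a circRNA (end minus start plus 1) was instead compared with the distance from the start of each annotated exon of the host to the end of the same or a later exon of the same transcript in GENCODE 29. For 9 of the 10 circRNAs exactly 1 pair of exon ends had that distance to the base. Over these 1313 circRNAs, 94.8% matched at least 1 pair, and spans made 1 base shorter or longer matched for 1.98% and 3.05%. The 3 matched circRNAs of chromosome 13 also lay as far apart in the table as their exons do in the annotation, 119635 bp between the starts of the DNAJC3 and first UGGT2 circles and 106525 bp between those of the UGGT2 circles. Back-splice reads show the ends of a circle only, so the exons between the ends, and the spliced lengths and sequences below, are those of the annotation.

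MAN1A2, a mannosidase that trims mannose from N-glycans, gave 2 circRNAs with the same start, hsa_circ_0000117 (chromosome 1, 117944808 to 117957453, span 12646 bp) and hsa_circ_0000118 (117944808 to 117963271, span 18464 bp). The first matched exons 2 to 4 of the 13-exon transcript (472 bases spliced) and the second exons 2 to 5 (553 bases), all coding. The shared site is thus the acceptor of exon 2, and the circles differ by exon 5. The junctions are shown because they are the only stretches by which a read tells the circles apart at their closure. The bases before the junction are in lower case, and the first bases of exon 2, common to both, are in capitals.
MAN1A2 hsa_circ_0000117: cttgatttcagtgtgGGAAGAGGAAGAACG
MAN1A2 hsa_circ_0000118: ctatcaggagaggagGGAAGAGGAAGAACG
Exon 5, which only the longer circle holds, lies at chr1:117420569-117420649 of GRCh38 on the plus strand. It has 81 bases, a multiple of 3, and 42.0% G + C.
MAN1A2 exon 5: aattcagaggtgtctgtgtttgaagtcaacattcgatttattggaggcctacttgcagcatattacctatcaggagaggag
In the annotation, the intron before exon 2 has 33700 bases. The intron after exon 4 has 5737 bases and the intron after exon 5 has 21581 bases.

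**Figure D1:**
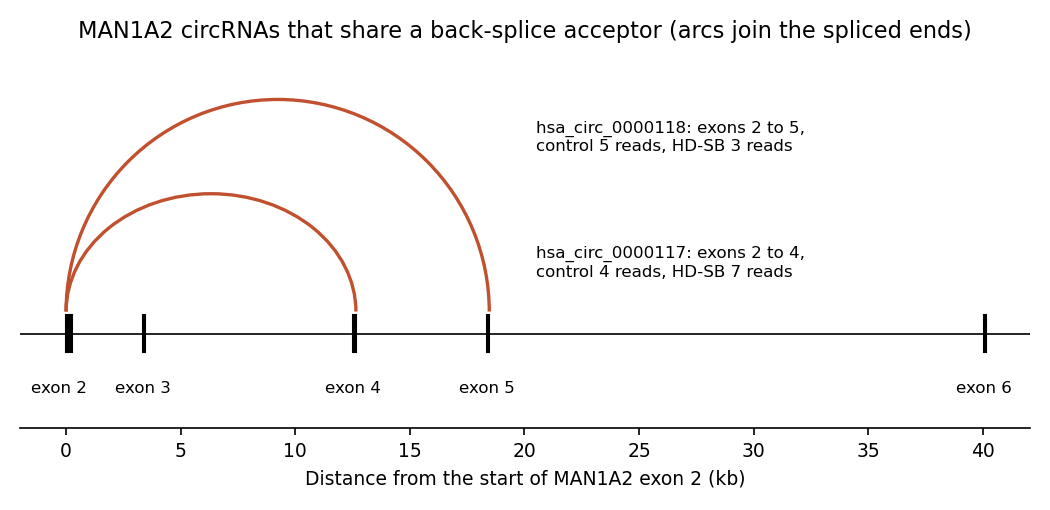
Map of MAN1A2 exons 2 to 6 (black boxes) along the gene, with distance from the start of exon 2 in kb on the horizontal axis and arcs joining the 2 ends of each circRNA. Both arcs begin at exon 2, and the longer one, with 5 control and 3 HD-SB reads, ends 1 exon further on than the shorter one, with 4 and 7.

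MAN1A2 was the only one of the 7 hosts listed in both libraries. hsa_circ_0000118 had 5 control reads, or 54945 CPM (reads per 1000000 listed back-splice reads), and 3 HD-SB reads, or 259 CPM. hsa_circ_0000117 had 4 control reads (43956 CPM) and 7 HD-SB reads (605 CPM). In the control only 1 circRNA had more reads than hsa_circ_0000118, while 1002 circRNAs had more in HD-SB. As a share of the library, hsa_circ_0000118 made up 5.49% of the control (95% Clopper-Pearson interval 1.81 to 12.4) and 0.0259% of HD-SB (0.00535 to 0.0758). hsa_circ_0000117 held 4.40% (1.21 to 10.9) and 0.0605% (0.0243 to 0.125). The reads of each circle were thus similar in number in libraries whose totals differed 127.1-fold. The intervals take each read as an independent molecule, which amplified reads are not, and cover only counting error.

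The share of hsa_circ_0000118 was 212-fold lower in HD-SB than in the control (41.2 to 1365, from the binomial split of the 8 reads between the libraries) and that of hsa_circ_0000117 was 72.7-fold lower (15.6 to 286). Together the MAN1A2 circles took 9.89% of the control library (4.62 to 17.9) and 0.0864% of the HD-SB library (0.0415 to 0.159), a 114-fold ratio (41.1 to 313). These intervals exclude an equal share for both circles, but the same held for 90.9% of the 22 circRNAs listed in both libraries. A count of 2 of 2 MAN1A2 circles therefore does not stand out from that background. A circRNA entered the control list only with 2 or more of 91 reads, so the 22 were selected for a high control share. This selection raises their ratios, and the intervals do not allow for it. A lower share in HD-SB was thus largely set by the listing and is no support for a difference. Among the 22, hsa_circ_0000118 had the largest ratio and hsa_circ_0000117 the sixth largest, against a median of 24.6, and the intervals of both MAN1A2 circles overlapped those of their neighbours. The control list held 32 circRNAs, and those not listed in HD-SB have no ratio here. The ranks and the median leave them out. With 2 or more control reads and at most 1 HD-SB read, their ratios would be larger than those of both MAN1A2 circles. With control values scaled down by the median of 24.6, hsa_circ_0000118 was 8.60-fold lower (1.67 to 55.4), while the interval of hsa_circ_0000117 included an equal share (2.95-fold, 0.633 to 11.6). The median was taken over the same 22 circRNAs, both MAN1A2 circles included, and its own error is not in these intervals. As hsa_circ_0000118 was picked as the largest of the 22, its interval is no support for a difference beyond the median.

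**Figure D2:**
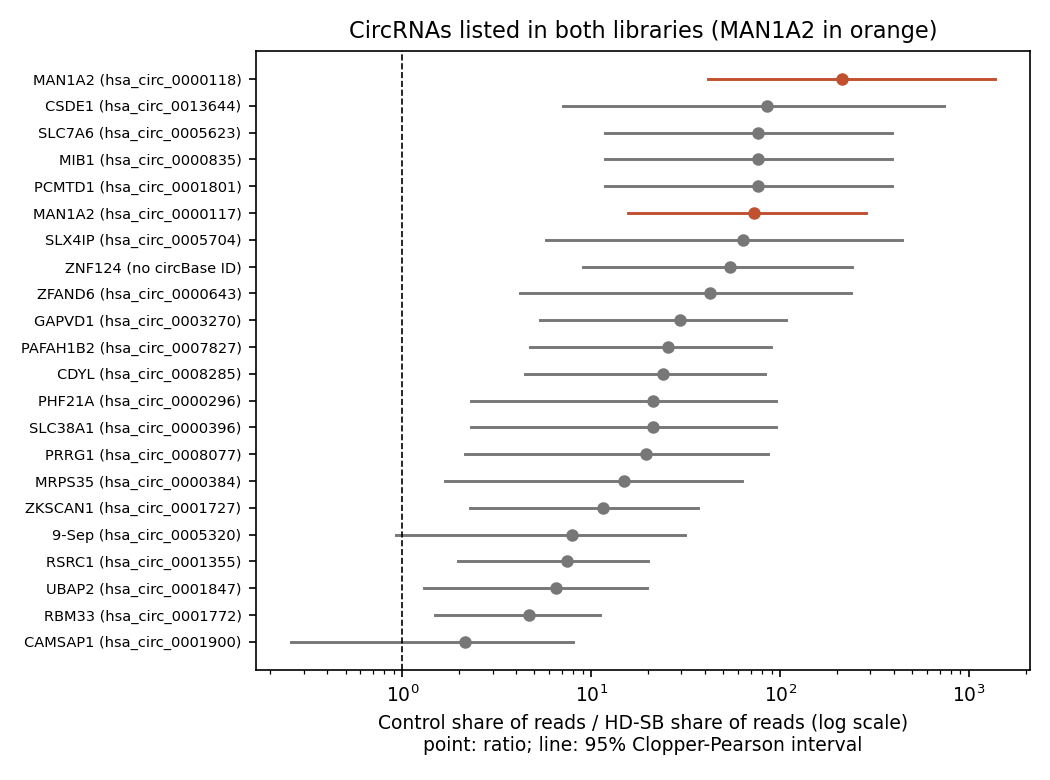
Ratio of the control share to the HD-SB share of reads for the 22 circRNAs listed in both libraries, on a log axis, with points for ratios and lines for 95% intervals. Both MAN1A2 circles (orange) lie among the 6 largest ratios, at 212 and 72.7, and their lines overlap those of their neighbours.

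The balance between the MAN1A2 circles does not depend on how the libraries are scaled. The longer circle took 5 of 9 MAN1A2 reads in the control, 55.6% (21.2 to 86.3), and 3 of 10 in HD-SB, 30.0% (6.67 to 65.2). The longer form thus had more reads than the shorter one in the control and fewer in HD-SB, but the intervals overlapped widely. The odds of the longer against the shorter circle differed 2.75-fold between the libraries, with an exact conditional interval of 0.320 to 28.9, so a change in exon 5 inclusion was not detectable with 19 reads. These were the only circRNAs among the 22 in both libraries that shared a back-splice site with each other. Among all 1485 circRNAs, 301 (20.3%) shared a start or an end with another.

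FUT8, the Golgi enzyme that adds core fucose to N-glycans, gave the circRNA with the most reads of the 7 hosts in HD-SB. hsa_circ_0003028 (chromosome 14, 66028055 to 66028484) had 16 HD-SB reads (1383 CPM, 0.138% of the library, 0.0791 to 0.224) and was not listed in the control. In HD-SB 99 circRNAs had more reads. Its span of 430 bp matched exon 3 of an 11-exon transcript alone, so of the 9 matched circles it was the only one with a single exon and the only one that holds the start codon, with 203 of its bases coding. The introns on either side are long in the annotation, 105618 bases before and 54211 after. The second FUT8 circRNA (65922339 to 65931191, span 8853 bp, no circBase identifier) had 3 HD-SB reads. Its span matched no pair of FUT8 exons, and 5 small-RNA names stood beside FUT8 in its host field, so its assignment to FUT8 is uncertain.

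UGGT1 and UGGT2, paralogous glucosyltransferases, put glucose back on glycoproteins that are not yet folded, and CANX (calnexin) is the membrane lectin that holds the reglucosylated chains. All 4 of their circles were listed in HD-SB only, as were 97.8% of all 1485 circRNAs. They lay wholly in coding exons, as did 74.5% of the other matched circRNAs. UGGT1 hsa_circ_0008298 (chromosome 2, 128922304 to 128928858) had 3 reads and matched exons 26 to 28 of 41, with 279 bases spliced. One UGGT2 circle, with no circBase identifier (chromosome 13, 96529533 to 96540225), had 4 reads and matched exons 26 to 29 of 39 (515 bases). The other, hsa_circ_0030632 (96636058 to 96651561), had 3 reads and matched exons 6 to 10 (432 bases). The UGGT2 circles thus came from separate parts of the gene and shared no exon. CANX hsa_circ_0003938 (chromosome 5, 179134133 to 179136060) had 6 reads (519 CPM) and matched exons 4 to 6 of 15, with 283 bases. The introns around the CANX circle, 800 and 813 bases, were the shortest of the 9 matched circles. The junctions of these members of one cycle are given below to identify the circles. The last bases of the donor exon are in lower case and the first bases of the acceptor exon in capitals.
UGGT1 exons 26 to 28: catgcctttaaaaagGGCAAGCGACTTGGT
UGGT2 exons 26 to 29: ttatcaaatagttggGTACTTGGCAAGATT
UGGT2 exons 6 to 10: aaggaaaatcaaaagAAACCAAGCTCACGG
CANX exons 4 to 6: ccagaactcaacctgGTGGATTTTATCCAA

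PDIA4, a protein disulfide isomerase of the ER lumen, gave hsa_circ_0001766 (chromosome 7, 148716084 to 148718239) with 6 HD-SB reads (519 CPM). It matched exons 2 and 3 of 10, with 387 coding bases. DNAJC3, a co-chaperone of the ER chaperone BiP and an inhibitor of the stress kinase PERK, gave the circle with the fewest reads, 2 in HD-SB (173 CPM), which is the listing minimum. It lay on chromosome 13 from 96409898 to 96416207, had no circBase identifier and matched exons 5 to 9 of 12, the longest of the matched circles at 682 bases. Neither was listed in the control, and 97.8% of all circRNAs were listed in HD-SB only.

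**Figure D3:**
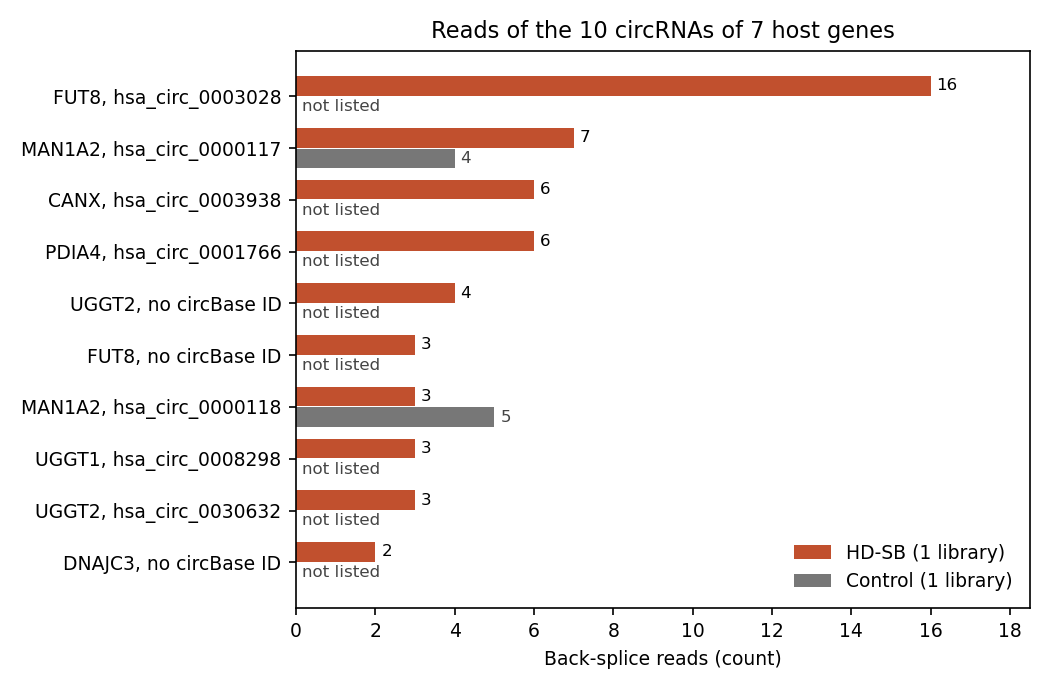
Back-splice reads (horizontal axis, linear) of each of the 10 circRNAs in the HD-SB library (orange) and the control library (grey). FUT8 hsa_circ_0003028 leads in HD-SB with 16 reads, and only the MAN1A2 circles, with 5 and 4 reads, were listed in the control.

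The 10 circRNAs held 53 HD-SB reads, 0.458% of the library (0.343 to 0.599), and 9 control reads, 9.89% (4.62 to 17.9), so every listed control read came from MAN1A2. The other 6 hosts had 43 HD-SB reads on 8 circRNAs. Listing in HD-SB only applied to 80.0% of the 10, against 97.8% of all circRNAs, and listing in both to 20.0%, against 1.48%, a share that rests on the 2 MAN1A2 circles. At an equal share, the 43 reads of the other 6 hosts would correspond to 0.338 control reads in all, and FUT8 hsa_circ_0003028 to 0.126. A difference between the libraries was not detectable for them at this depth. An unlisted circRNA would have needed 471 HD-SB reads, or 711 if it had 1 control read, for its interval to exclude an equal share. Within HD-SB the 10 had a median of 3.5 reads (quartiles 3 and 6), against 5 (3 and 8) for all other circRNAs.

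In genomic span the 10 circles ranged from 430 bp (FUT8) to 18464 bp (MAN1A2), with a median of 7704 bp against 4081 bp for the others. Weighted by HD-SB reads, the median was 2156 bp against 2967 bp, since the short FUT8 circle held the most reads. The 9 circles matched to exons had a median of 3 exons and of 432 spliced bases (279 to 682), against 3 exons and 373 bases for 1221 other matched circRNAs. Of the 9, 8 were wholly coding (88.9%, against 74.5%), 3 had a length that is a multiple of 3, those of PDIA4, UGGT1 and UGGT2 hsa_circ_0030632 (33.3%, against 37.2%), and 3 began at exon 2, those of MAN1A2 and PDIA4 (33.3%, against 26.6%). The median intron before the circle had 13999 bases, against 7307, and the median intron after it 9855, against 6583. Circles of 1 host share sequence and introns, so these are descriptions of 7 genes and were not tested.

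The matched exons were on the low side in G + C, within a range that 33.9% of the 1221 other matched circRNAs reached or fell below at its upper end. All 9 lay below the median of the other circRNAs, 49.8%, with a range from 35.0% for UGGT2 hsa_circ_0030632 to 45.7% for PDIA4 and a median of 40.6%. MAN1A2 had 39.8% in the shorter and 40.1% in the longer circle. Base composition also went with the library, with a median of 43.9% over the 30 matched circRNAs listed in the control and 49.9% over the 1200 listed in HD-SB only. Its part in the MAN1A2 ratios was not tested.

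**Figure D4:**
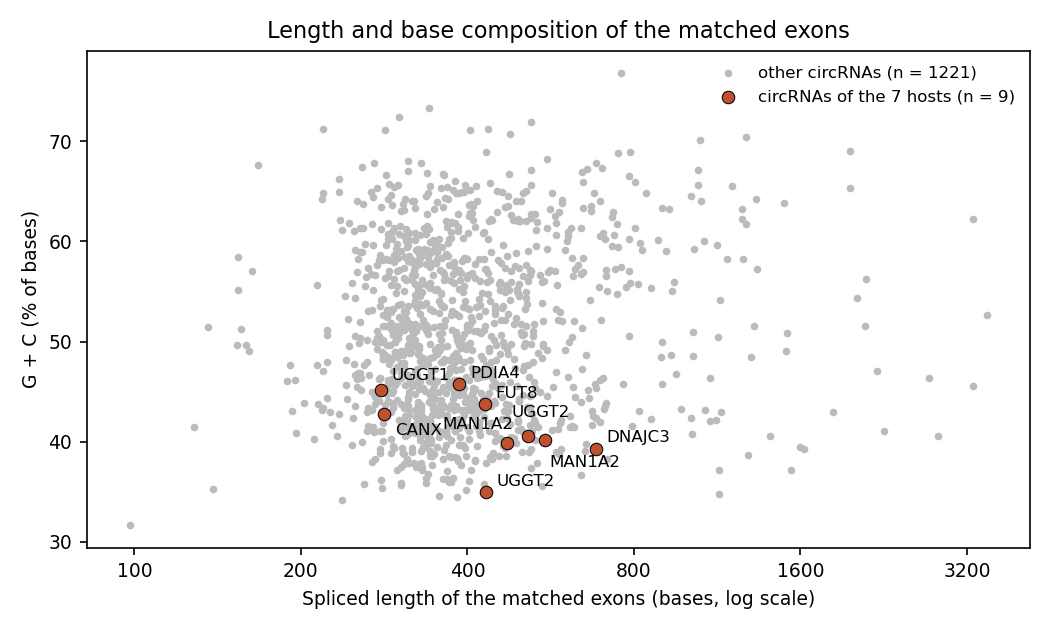
Spliced length (horizontal, log axis, bases) and G + C content (vertical, percent) of the exons matched to 9 circRNAs of the 7 hosts (orange) and 1221 others (grey). The orange points lie between 279 and 682 bases and between 35.0% and 45.7% G + C, all below the 49.8% median of the others.

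The series title names the microRNA hsa-miR-204-5p, so the matched exons were searched for the complement of its seed, the bases 2 to 8 in capitals.
hsa-miR-204-5p: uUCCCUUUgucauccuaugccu
The 7-base match AAAGGGA, searched on the transcript strand and across the closing junction, was present in both MAN1A2 circles and in none of the other 7 matched circles. It is 1 site in exon 2, at base 237 from the acceptor, and is therefore held by both circles irrespective of exon 5.
MAN1A2 exon 2 site: ataagagagaAAAGGGAaaaaattaaa
The match was found in 4.50% of the 1221 other matched circRNAs and in 4.48% of the 983 of them that were 279 to 682 bases long. Among matched circRNAs listed in the control, it was present in 7 of 30 (23.3%), against 4.17% of the 1200 listed in HD-SB only. The 7 include both MAN1A2 circles, which hold the same site. The 30 also had a longer median length (435 against 371.5 bases) and a lower median G + C (43.9% against 49.9%). The difference was not tested. The 7-base match is one of letters and no measure of binding.

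A list of 93 further gene symbols covered N-glycan synthesis, trimming, sugar transport, ER folding, ER-associated degradation and ER stress signalling. Some of the symbols are older and newer names of the same gene. Of the list, 6 were hosts, with 7 circRNAs and 88 HD-SB reads, 0.761% of the library (0.610 to 0.936). They had no listed control read, and the control interval of 0 to 3.97% included that share. Listing in HD-SB only applied to 97.8% of all circRNAs. MGAT5, the Golgi enzyme that adds a branch to N-glycans, had 30 reads on 2 circRNAs. These also shared their start, and the shorter, hsa_circ_0001068, had 27 reads against 3 for hsa_circ_0002480. GANAB, the catalytic subunit of the glucosidase that removes glucose in the lectin cycle, had 29 reads on hsa_circ_0008011. P4HB, a protein disulfide isomerase, had 10, ENGASE, a cytosolic enzyme that releases glycans, 8, SIL1, a nucleotide exchange factor of BiP, 7, and MCFD2, part of a cargo receptor that leaves the ER, 4. MGAT5 and GANAB each had more HD-SB reads than any of the 7 hosts, of which FUT8 had 19 in all.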

How the data were processed

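The authors deposited 1 table of circRNAs with 1 value column for the HD-SB library and 1 for the control. Its values are headed TPM per the file headers but behave as CPM, reads per 1000000 listed reads of that library, in the deposited table, since each column sums to 1000000 and 100% of listed values are whole multiples of 1 step (within 0.01 of a step), 10989 CPM for the control library and 86.4 CPM for HD-SB. Dividing by the step gave reads. This step is the largest that all values allow. The value 0.001 was taken as not listed, that is 0 or 1 read. The submitters' processing notes name FastQC, HISAT2 2.1.0 and GRCh38. Which program called the circRNAs, with which filters and with or without duplicate removal, is not given in the sources used here.

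Shares, ratios and 95% intervals were computed in Python 3.11.15 with scipy 1.17.1 and tested on simulated data. No count model was run, since each group has 1 library. Exon pairs were matched by span alone, with no conversion of coordinates, and sequences came from GENCODE 29 transcripts and, for the microRNA, RefSeq (GRCh38.p14). Where several transcripts matched, the one with most exons was used. Named hosts were the 7 given and, from the list of 93 further gene symbols, the 6 with most HD-SB reads. Hosts and lists were chosen with earlier results of these data known. The span match and the microRNA search were added after the data were seen. Alternatives covered the host match, denominator, low-read filter, unlisted value, scaling, pseudocount and weighting.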

Additional observations from a re-analysis of the deposited data

How the results depend on the processing

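Of 25 alternative values, 22 kept their direction and their side of an equal share or, for values with no such call, stayed within the interval or within 1.5 times of the reported value. Several of the 22 repeat the reported value exactly because the setting altered no read, so they add no support. These were the wider host match in both libraries, the single host name in the control and 1 read for unlisted members in HD-SB. All settings of the MAN1A2 isoform shares were also of this kind. One of the 22 still moved far in size, since scaling of the control by the median ratio took hsa_circ_0000118 from 212-fold to 8.60-fold lower, outside its reported interval. Without the 10 most abundant circRNAs of each library the control share of the 7 hosts became 0%, because both MAN1A2 circles are among those 10. Under that median-ratio scaling (factor 0.0406) the log2 ratio of MAN1A2 hsa_circ_0000117 was -1.56, with an interval that includes an equal share, and the cause is the factor itself. Weighting by HD-SB reads moved the median span to 2156 bp, through the 16 reads of 1 FUT8 circle. Counting only the circRNAs with a single host name, an alternative chosen after seeing the data, left 7 of the 8 circRNAs that the control did not list. No paired analysis was possible because only 1 library stands for each group. Depth limits all comparisons through the control, where 1 read is worth 10989 CPM.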
